A study of Mus musculus with 8 samples.

Results

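The MEIS, PKNOX (also called PREP) and PBX genes encode homeodomain proteins of the TALE class, named for a short loop extension in the homeodomain. 8 of them were followed: Meis1, Meis2, Meis3, Pknox1, Pknox2, Pbx2, Pbx3 and Pbx4. They were taken by name from the GENCODE M21 annotation, where they are 8 of 21951 protein-coding genes, with 89 transcripts and 78 distinct transcript starts. The peaks counted for a gene lay in its start window, from 5 kb upstream to 1 kb downstream of any of its transcript starts, or elsewhere in its gene body.

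PBX proteins bind DNA beside a partner, either a HOX protein or a MEIS or PKNOX protein. MEIS and PKNOX proteins hold PBX in the nucleus and are alternative partners for it, and HOX proteins gain sequence selectivity in such complexes. MEIS genes are known to respond to retinoic acid (RA) in embryonal cells, and MEIS and PBX proteins act with the anterior HOX proteins when the hindbrain is patterned.

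The measurements were ChIP-seq peak lists. All cells were E14Tg2a, a mouse embryonic stem cell line, used between passages 37 and 40. Pluripotent cells (ESCs) grew with LIF, the leukemia inhibitory factor, while neuronal cells (NCs) were LIF-free monolayers given 1 µM RA for 48 h, with several plates pooled for each immunoprecipitation. FGFR1, a growth factor receptor also found in the nucleus, and the nuclear receptors RXR and Nur77 were precipitated in both states, and the histone variant H3.3 in NCs. The FGFR1 antibody was used in 2 RA libraries, called replicates 1 and 2 here. Each of the other 6 groups had a single library. With at most 2 libraries on a side no test between LIF and RA was run, and no p-value was computed. The lists hold no expression values, so neither the neuronal state of the NCs nor expression of the 8 genes could be checked here.

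The lists held between 10634 and 46137 peaks. Their background density, a measure of depth recovered from the deposited values, ran from 1.27 fragments per kb for H3.3 to 7.09 for RXR in LIF, and was 1.87 for RXR in RA. The FGFR1 lists had 2.71 (LIF), 4.16 (RA replicate 1) and 6.78 (RA replicate 2). The FGFR1 replicates also differed in kind. Of the peaks in replicate 1, 25.01% lay mostly in sequence that the reference marks as repeat, against 0.75% in replicate 2 and 51.51% in LIF.

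Each peak carries the deposited fold and the deposited −log10 p of the fragment pileup at its summit. The fold is that pileup over the local background after the same constant was added to both. At a low background it therefore also varies with depth. All positions are in mm10. Stretches of the sites on which the values below turn are printed first, from the GRCm38 reference, 5′ to 3′ on the strand of the gene and without untranslated exons. The 4 sites nearest to gene starts come first. In the Pknox1 stretch capitals mark a MEIS core word (TGACAG, here read as its complement) and then a PBX-HOX word (TGATNNAT, also as its complement), in the Pbx3 stretch a MEIS core word, and in the Pbx4 and Meis1 stretches every CpG.
Pknox1 start site, chr17:31564889-31565000, plus strand: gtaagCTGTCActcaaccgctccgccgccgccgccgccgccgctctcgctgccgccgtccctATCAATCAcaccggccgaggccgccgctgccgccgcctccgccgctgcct
Pbx4 start site, chr8:69832709-69832907, plus strand: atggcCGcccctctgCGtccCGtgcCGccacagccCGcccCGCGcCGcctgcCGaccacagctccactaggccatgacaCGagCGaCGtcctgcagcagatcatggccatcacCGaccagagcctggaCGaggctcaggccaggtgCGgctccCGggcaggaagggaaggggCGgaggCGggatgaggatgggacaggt
Pbx3 start site, chr2:34372572-34372871, minus strand: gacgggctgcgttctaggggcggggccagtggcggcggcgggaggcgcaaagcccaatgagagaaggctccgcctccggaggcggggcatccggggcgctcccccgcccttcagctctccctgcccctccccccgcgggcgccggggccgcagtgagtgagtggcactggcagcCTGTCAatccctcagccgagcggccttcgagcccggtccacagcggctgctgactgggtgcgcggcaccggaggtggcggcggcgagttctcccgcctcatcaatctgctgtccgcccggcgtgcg
Meis1 start site, chr11:19018986-19019183, minus strand: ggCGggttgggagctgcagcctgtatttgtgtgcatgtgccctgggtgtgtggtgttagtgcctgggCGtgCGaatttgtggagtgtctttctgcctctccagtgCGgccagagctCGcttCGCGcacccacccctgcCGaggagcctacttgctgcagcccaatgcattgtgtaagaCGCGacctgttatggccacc

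The Pknox1 stretch opens at the first base of an intron and holds 19 CpG in 112 bases, many of them in a run of CCG triplets. The Pbx4 stretch holds 18 CpG in 199 bases, the Pbx3 stretch 34 in 300 and the Meis1 stretch 10 in 198. Farther from those starts, 4 more sites shared by libraries were of mixed kinds. Capitals mark every CpG in the Pknox1 intron and Meis2 upstream stretches, the longest run of alternating purines and pyrimidines in the Meis2 intron, and a MEIS core word in the Pbx3 intron.
Pknox1 intron site, chr17:31570415-31570529, plus strand: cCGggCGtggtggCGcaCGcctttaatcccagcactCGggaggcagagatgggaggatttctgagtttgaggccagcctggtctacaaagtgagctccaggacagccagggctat
Meis2 upstream site, chr2:116067159-116067301, minus strand: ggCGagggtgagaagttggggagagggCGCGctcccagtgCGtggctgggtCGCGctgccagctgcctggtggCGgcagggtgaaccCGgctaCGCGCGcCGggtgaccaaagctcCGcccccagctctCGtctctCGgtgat
Meis2 intron site, chr2:115980626-115980925, minus strand: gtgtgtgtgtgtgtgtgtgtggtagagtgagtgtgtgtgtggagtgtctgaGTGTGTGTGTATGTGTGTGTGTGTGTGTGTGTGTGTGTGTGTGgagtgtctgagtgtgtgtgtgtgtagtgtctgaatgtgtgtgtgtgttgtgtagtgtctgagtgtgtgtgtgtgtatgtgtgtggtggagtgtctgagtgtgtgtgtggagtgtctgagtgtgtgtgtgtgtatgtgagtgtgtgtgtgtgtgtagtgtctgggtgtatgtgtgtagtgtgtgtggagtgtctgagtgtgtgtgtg
Pbx3 intron site, chr2:34249635-34249808, minus strand: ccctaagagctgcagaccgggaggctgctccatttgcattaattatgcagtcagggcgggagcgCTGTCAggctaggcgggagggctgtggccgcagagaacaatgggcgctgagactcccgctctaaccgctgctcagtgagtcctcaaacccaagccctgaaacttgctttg

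The Meis2 intron stretch is made of TG repeats, with a longest alternating run of 43 bases and no CpG in 300. All of the Pknox1 intron site, 100% of its bases, is marked as repeat in the reference, while 0% of the Meis2 upstream site and 10.92% of the Pbx3 intron site is.

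In RA, FGFR1 had a start window peak at all 8 genes in replicate 1 and at 5 in replicate 2, against 3 in LIF. Over all protein-coding genes the share with such a peak was 56.0% (RA replicate 1), 51.5% (RA replicate 2) and 19.7% (LIF). A gene with more transcript starts has a wider start window, and the start windows of the 8 genes covered 161610 bp. Here and below, shares over all genes were not matched for window width. The mean over the RA libraries was 6.5 ± 2.12 genes (SD, n = 2), an excess over LIF of 3.5 genes. That SD holds no spread for LIF, which had 1 library, and no test was run. With the same number of peaks taken from each list, the strongest first, the excess was 0.5. The share of all genes rose between the same libraries, so the count at the 8 genes moved with the whole lists.

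RXR had a start window peak at 5 of the 8 genes in LIF and at 3 in RA, where 46.4% and 26.2% of all genes had one. The LIF list had the higher background density. Thinned to that of the RA list, each of the 5 peaks in LIF had a chance of 0.14 to 0.36 of passing the p limit. All were under the 0.5 set for keeping a peak, which left 0 genes in LIF. The RA list was not thinned and kept its 3, so the turned order rests on the 0.5 limit, with density matched per kb. The shortest peak, taken as the fragment length, was 80 bp in LIF and 116 bp in RA. Matching the background per fragment length instead was not tested. The share of all genes is not given at equal depth. The part of depth in the difference was not otherwise tested. Nur77 had a peak at 3 genes in LIF and at 2 in RA, beside 29.8% and 31.0% of all genes. H3.3 had one at 2 genes, beside 18.0% of all genes. For RXR, Nur77 and H3.3 each count thus stood near the share of all genes.

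**Figure D1:**
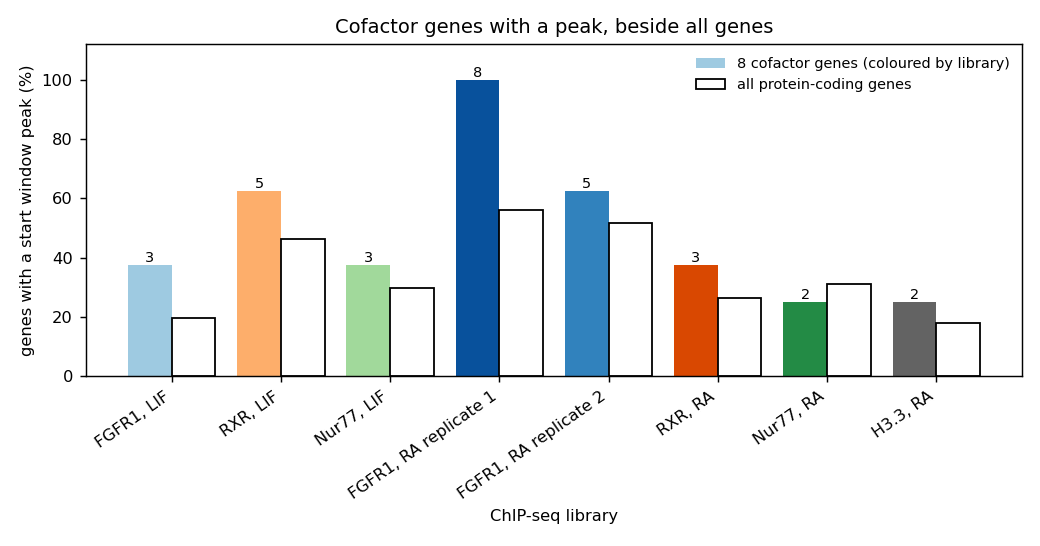
Share of genes with at least 1 peak in the start window (vertical axis, percent) in each library (horizontal axis). Coloured bars are the 8 cofactor genes with the number bound printed above each, and open bars are all 21951 protein-coding genes. FGFR1 in RA replicate 1 had a peak at 8 genes, and Nur77 in RA stood below the share of all genes.

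By gene, Pknox1 had a start window peak in 7 libraries, Pbx4 in 6, Pbx3 in 5, Meis1 and Meis2 in 4 each, Pbx2 in 3, and Meis3 and Pknox2 in 1. Among all genes, 18.131% had peaks in 6 or more libraries and 29.798% had none. 2 of the 8 had peaks in 6 or more, and none of the 8 was without a peak. Without FGFR1 in RA replicate 1, a setting chosen after seeing the data, 2 of the 8 (Meis3 and Pknox2) had none, beside 32.64% of all genes.

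**Figure D2:**
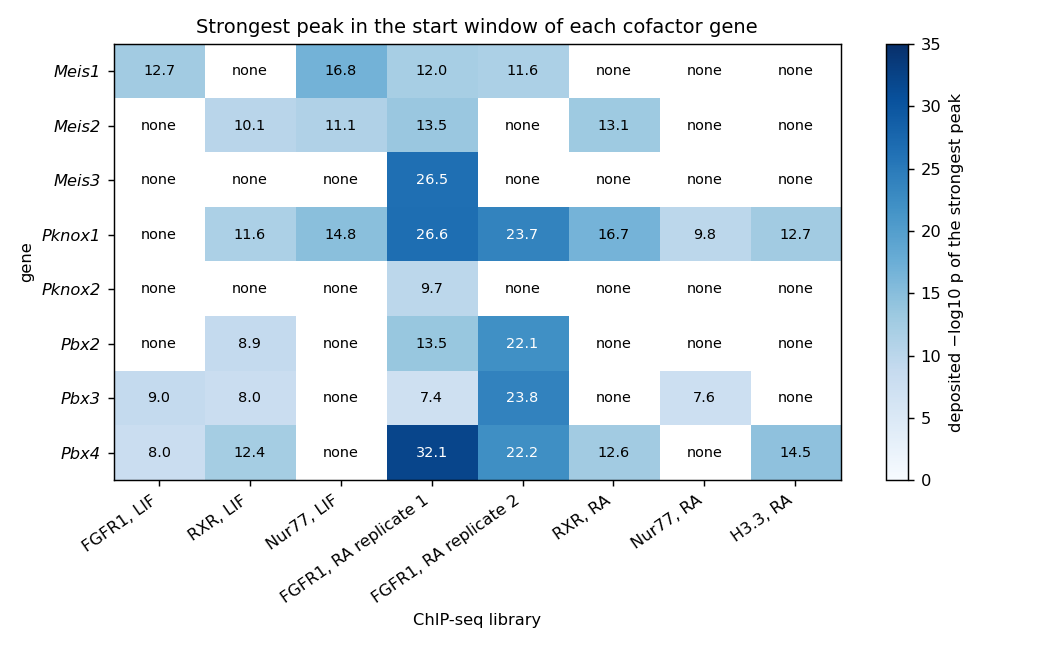
Deposited −log10 p of the strongest start window peak for each gene (rows) in each ChIP-seq library (columns), with darker blue for higher values and "none" where the list held no peak. The darkest cells, from 22.1 to 32.1, are those of Pknox1 and Pbx4 in both FGFR1 libraries from RA, Meis3 in replicate 1, and Pbx2 and Pbx3 in replicate 2.

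Among the MEIS genes, Meis1 lies on chr11:18879817-19018985, minus strand. MEIS1 is a partner of PBX and HOX proteins in blood stem cells, leukemia and neural development. At its start, a site at chr11:19018887-19019183 held FGFR1 peaks in LIF and in both RA libraries and no peak of another factor. The LIF peak had a −log10 p of 12.7, beside 12.04 for RA replicate 1 and 11.6 for replicate 2, and the fold was 7.97, 7.43 and 5.78. The RA values lay slightly below the LIF value, and their summits, 129 bp upstream and 3 bp downstream of the start, lay 132 bp apart. In the same window, Nur77 in LIF had a peak with a −log10 p of 16.8 at 2149 bp upstream, and FGFR1 in RA replicate 2 had one of 9.20 at 1526 bp upstream.

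The Meis1 gene body held 5 more peaks, each in 1 library. Nur77 in RA had 2 of them, at chr11:18881774-18881878 in coding sequence and at chr11:18907810-18907907 over an alternating tract, with −log10 p of 9.40 and 12.7. RXR in RA, Nur77 in LIF and RXR in LIF had 1 each, with values of 11.6, 10.4 and 7.66. No position in the Meis1 body was shared between libraries. The RXR peak in LIF lay within 1 kb of the start of Gm16140, another annotated gene.

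Meis2, on chr2:115863064-116065839, minus strand, is known for its rise under RA in embryonal cells and for roles in neural crest, hindbrain and limb. Its 19 peaks were mostly of 1 kind: 13 lay over a tract, an alternating purine-pyrimidine run of at least 20 bp, and 13 lay in the gene body. Over all 8 genes 19 of 88 peaks (21.6%) lay over a tract, while in whole lists this share ran from 1.26% for FGFR1 in RA replicate 2 to 51.7% for FGFR1 in LIF. The intronic TG repeat printed above, chr2:115980626-115980939, held peaks in 5 libraries. Their −log10 p was 25.3 in RXR from LIF, 11.95 in Nur77 from LIF, 10.3 in Nur77 from RA, 8.11 in FGFR1 from LIF and 6.92 in H3.3. FGFR1 in RA had no peak there in either replicate. The authors kept uniquely placed reads, and how the repeat affected these peaks was not tested.

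At the start of Meis2, an upstream site at chr2:116067159-116067301 held RXR in both states, with a −log10 p of 10.1 in LIF and 13.1 in RA. Its summits lay 1380 and 1407 bp upstream of the nearest Meis2 start and within 1 kb of starts of 2700033N17Rik and G630016G05Rik, so the gene to which the site belongs cannot be told apart by position. FGFR1 in RA replicate 1 had 2 peaks in the Meis2 start windows, with −log10 p of 13.5 and 11.9, and both covered tracts. The stronger one, chr2:115874309-115874382, lay 191492 bp from the outermost start, beside an internal start. Without tract peaks Meis2 had no FGFR1 peak in its start windows, and replicate 2 had none anywhere in the gene.

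Meis3, on chr7:16175090-16186504, plus strand, encodes a partner of PBX in the hindbrain. It held peaks in 1 library, FGFR1 in RA replicate 1. A peak at chr7:16183848-16183939 reached 26.5 in −log10 p and 14.1 in fold, and stood at the 95.5 percentile of its list. Its summit lay in an intron, 201 bp upstream of an internal transcript start and 8799 bp from the outermost one. The other, near the outermost start at chr7:16175336-16175407, had a −log10 p of 8.50. Replicate 2, with a higher background density, held no Meis3 peak, so the strong value was not seen again.

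**Figure D3:**
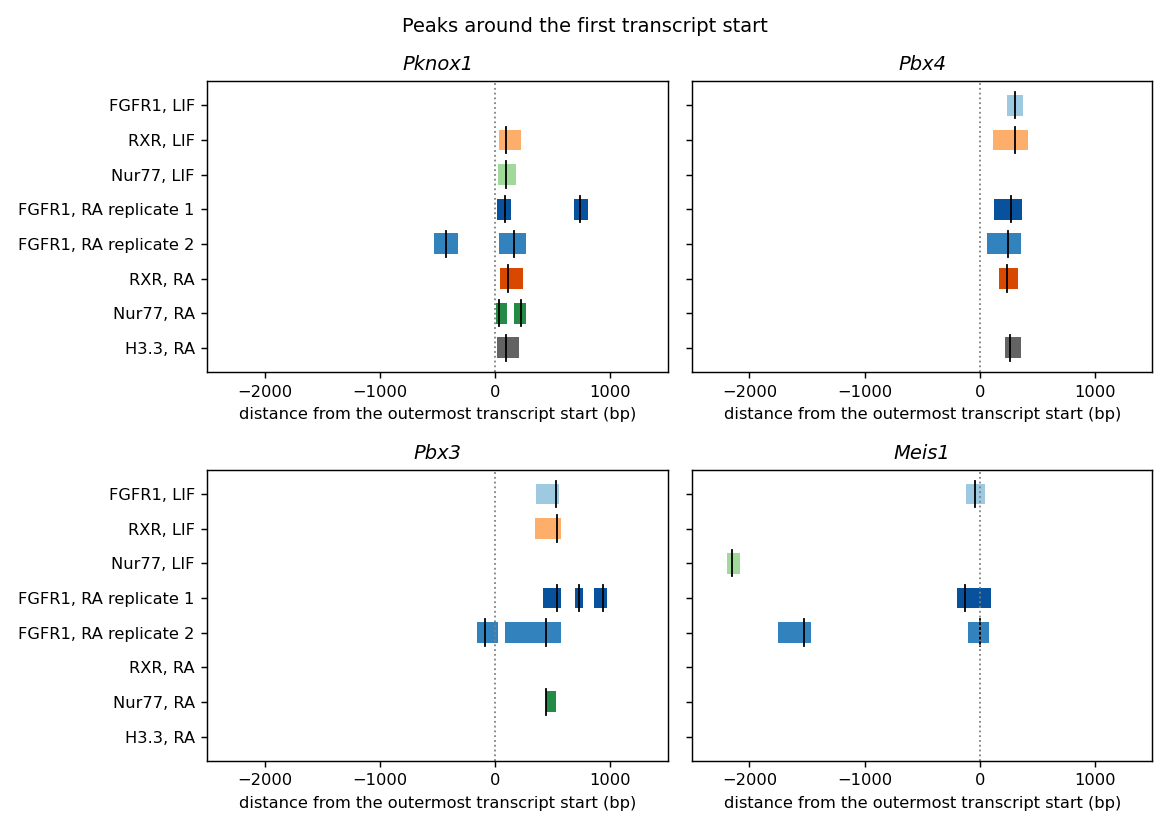
Peaks around the outermost transcript start of Pknox1, Pbx4, Pbx3 and Meis1 (horizontal axis, distance in bp, negative upstream) in each library (rows). Boxes are peaks and black ticks their summits. At Pknox1 and Pbx4 the peaks of 7 and 6 libraries stack over the same stretch just downstream of the start, and at Meis1 the peaks at the start were all of FGFR1.

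Of the PKNOX genes, Pknox1 on chr17:31564734-31607693, plus strand, encodes a widely expressed PBX partner needed in the early embryo. A site at its start, chr17:31564737-31565000, held peaks of all libraries except FGFR1 in LIF. FGFR1 in RA had a −log10 p of 26.6 in replicate 1 and 23.7 in replicate 2, with folds of 12.8 and 8.34. RXR had 11.6 in LIF and 8.60 in RA. Nur77 had 13.9 in LIF, and in RA 2 peaks of 9.80 each. H3.3 had 12.7.

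At Pknox1, FGFR1 thus had the highest value of the 7 libraries in both RA replicates and no peak in LIF. The LIF list was the shallowest of the 3 FGFR1 lists, and the absence of a peak there means only that none passed the p limit of 1e-05 at that depth. Starts of AC166172.4 and Gm24970 lay within 1 kb of these peaks, so the site is not that of Pknox1 alone. FGFR1 in RA also had flanking peaks in 1 replicate each, with a −log10 p of 16.6 at 427 bp upstream in replicate 2 and of 9.79 at 735 bp downstream in replicate 1.

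The Pknox1 intron site at chr17:31570415-31570529 held Nur77 and RXR in LIF and FGFR1 in RA replicate 1, with −log10 p of 21.9, 20.6 and 14.3. The first and second of these exceeded the value of the same library at the Pknox1 start. The site is wholly repeat, and FGFR1 replicate 2, which had few peaks in repeats, had none there. Another shared site, chr17:31587901-31588112, held RXR in RA at 16.7 and Nur77 in LIF at 14.8. It covers an alternating tract of 56 bp, 470 to 484 bp upstream of an internal start. Both of these exceeded the value of their library at the outermost start.

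The protein-coding genes most like Pknox1 in their strongest start window peaks were Ssh2, Tef and Cyth1, at distances of 0.1531, 0.2156 and 0.2216. The distance is Euclidean, over the 8 libraries, between log10(1 + highest −log10 p). All 3 had no FGFR1 peak in LIF and a −log10 p of 16.3 to 27.9 for FGFR1 in RA. They were picked by these same values, so that likeness is not a separate result.

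Pknox2, on chr9:36890982-37147407, minus strand, encodes a PKNOX protein of more restricted expression. It had 13 peaks, 12 of them in its gene body, and 1 start window peak, of FGFR1 in RA replicate 1, with a −log10 p of 9.75 at 264 bp downstream of a start. Intronic sites at chr9:37054291-37054406 and chr9:37082072-37082190 each held RXR in LIF and Nur77 in RA. RXR had −log10 p of 13.3 and 13.2 at them, and Nur77 had 7.67 and 11.2. FGFR1 in RA replicate 2 had a peak of 9.23 at chr9:37054112-37054267, beside the first site and not overlapping it. The other Pknox2 peaks each came from a single library, with −log10 p from 8.77 to 14.1.

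Among the PBX genes, Pbx2 on chr17:34591266-34597400, plus strand, encodes a broadly expressed PBX protein. Its 4 peaks formed 1 site, chr17:34587055-34587857. FGFR1 in RA replicate 2 had 2 peaks there with −log10 p of 20.8 and 22.1, replicate 1 had 1 of 13.5, and RXR in LIF had 1 of 8.94. The summits lay from 3532 to 4066 bp upstream of the nearest Pbx2 start, inside the neighbouring gene Notch4 and within 1 kb of a Notch4 start. With a window of 1 kb on either side of the starts, Pbx2 had no peak in any library. No peak lay at the start of Pbx2 itself.

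Pbx3, on chr2:34171457-34373142, minus strand, encodes a PBX protein known from neural and respiratory control. Its site at chr2:34372572-34373062 begins just downstream of the outermost start. It held FGFR1 in all 3 libraries, and their −log10 p was 8.96 (LIF), 7.32 (RA replicate 1) and 23.8 (RA replicate 2). The replicates differed more from each other than replicate 1 did from LIF. By background density replicate 2 was the deepest of the FGFR1 lists, and the part of depth in this difference was not tested. RXR in LIF had 7.96 and Nur77 in RA had 7.61 at the same site, both near the low end of their lists, at the 15.7 and 9.47 percentiles. FGFR1 in RA replicate 1 had 2 more weak peaks within 1 kb of that start, of 7.36 and 7.32, and replicate 2 had 1 more, of 10.0, at 91 bp upstream.

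In the body of Pbx3, chr2:34249635-34249808 held FGFR1 in RA replicate 2 at 13.9 and RXR in RA at 10.00, both over the same MEIS core word. This intronic site had no peak in LIF from either factor, and none of FGFR1 in RA replicate 1. By background density the LIF list was the deeper for RXR and the shallower for FGFR1. The other body peak, of RXR in LIF at chr2:34178192-34178278, lay in coding sequence with a −log10 p of 11.9. Pbx3 had no peak over a tract.

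Pbx4, on chr8:69832491-69872292, plus strand, encodes a PBX protein best known from testis in the adult mouse. All of the 6 libraries with a start window peak shared a site at chr8:69832556-69832907, where the summits lay in coding sequence, 236 to 310 bp downstream of the outermost start. FGFR1 had −log10 p values of 7.96 (LIF), 32.1 (RA replicate 1) and 22.2 (RA replicate 2), and folds of 5.72, 15.9 and 10.1. Both RA values were well above the LIF value, and replicate 1 stood at the 97.5 percentile of its list. By background density the LIF list was the shallowest of the FGFR1 lists, and −log10 p and fold both vary with depth. The part of depth in this difference was not tested.

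At the same Pbx4 site RXR had 12.4 in LIF and 12.6 in RA, and H3.3 had 14.5. RXR thus differed little between states there, while the LIF list was the deeper by its background density. Nur77 had no peak at the Pbx4 start in either state, and its only Pbx4 peak, of 10.1 in RA, lay 8626 bp into the gene. Replicate 1 of FGFR1 in RA had 2 further peaks near an internal start, at chr8:69863887-69863958 and chr8:69864928-69864999, with −log10 p of 9.36 and 9.22.

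FGFR1 had a start window peak in both RA libraries at 5 genes, Meis1, Pknox1, Pbx2, Pbx3 and Pbx4. At all genes this share was 42.59%. The nearest summits of the replicates lay 24 bp apart at Pbx4, 84 at Pknox1, 96 at Pbx3, 132 at Meis1 and 139 at Pbx2. Of the 5, Pknox1 and Pbx2 had no FGFR1 peak in LIF, and 2 of 8 is close to the 26.0% of all genes with that pattern. H3.3 in RA overlapped 2 of 24 FGFR1 peaks in replicate 1 and 2 of 11 in replicate 2, at Pbx4 and Pknox1 in each case. Over whole lists H3.3 overlapped 16.69% of FGFR1 peaks in replicate 1 and 15.21% in replicate 2.

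The 88 peaks at the 8 genes merged into 55 sites, 26 in start windows and 29 in gene bodies, and 42 sites came from a single library. Of the 13 shared by 2 or more libraries, 7 lay in start windows and 6 in gene bodies. Start windows took 49 of the 88 peaks within 161610 bp, and the 778759 bp of gene body outside them took 39. Start window peaks per 100 kb numbered 10.5 at these genes for FGFR1 in RA replicate 1, beside 7.32 over all protein-coding genes, and 5.57 beside 4.74 for replicate 2. RXR in LIF went the other way, with 3.09 beside 5.50, as did Nur77 in RA (1.86 beside 3.03) and H3.3 (1.24 beside 1.53). In gene bodies the FGFR1 replicates differed, with 0.899 beside 1.66 for replicate 1 (7 peaks) and 0.257 beside 0.104 for replicate 2 (2 peaks).

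**Figure D4:**
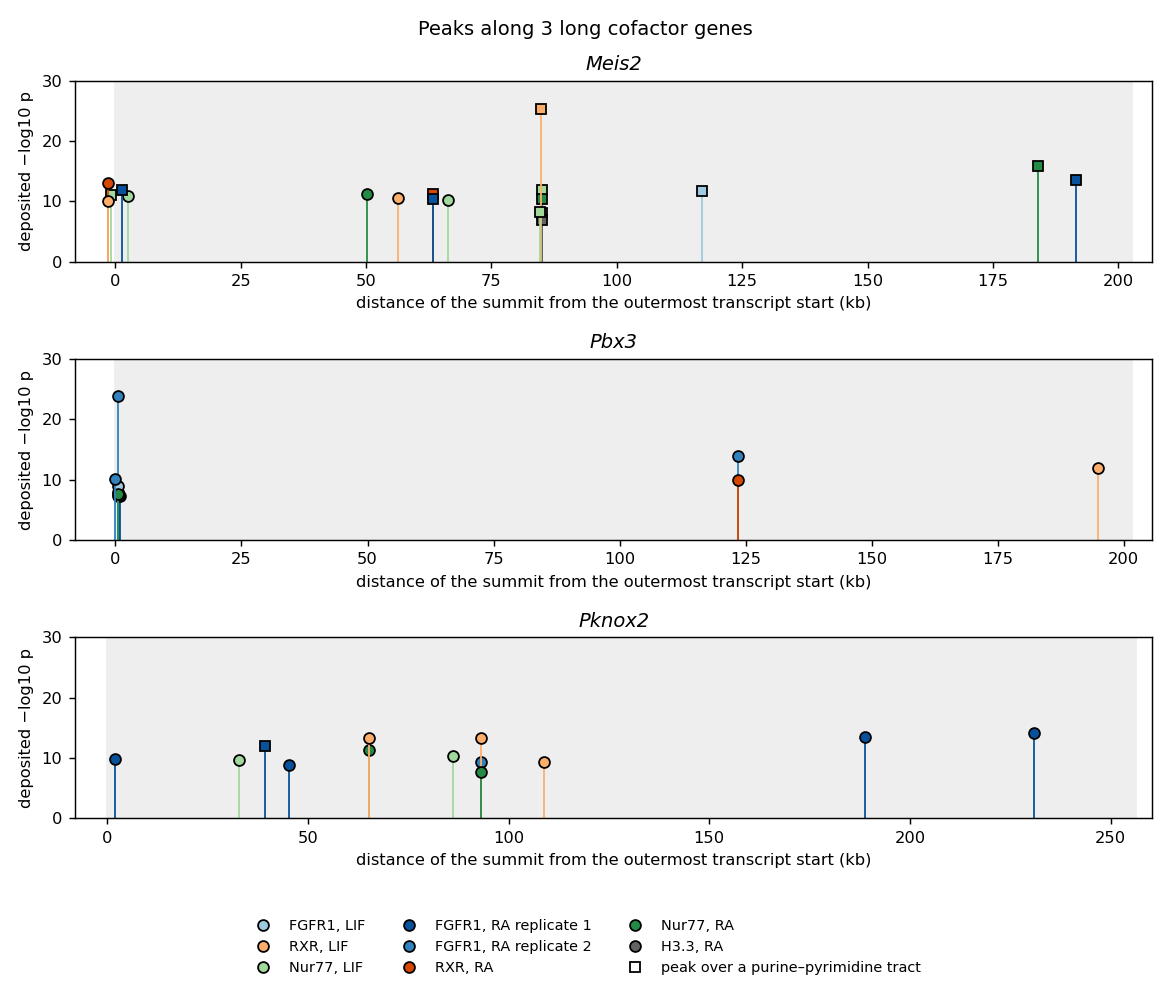
Deposited −log10 p (vertical axis) of each peak along Meis2, Pbx3 and Pknox2 against the distance of its summit from the outermost transcript start in kb (horizontal axis), with the gene body shaded. Colours are libraries and squares are peaks over a purine-pyrimidine tract. Squares dominate Meis2, with 13 of its 19 peaks, and none occur in Pbx3.

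Base composition differed between start window and gene body peaks, with overlapping ranges (48 to 84% GC and 47 to 67% GC). In the 100 bp around the summit, start window peaks had a median of 11.0 CpG and 68.0% GC, and gene body peaks 2.00 CpG and 56.0% GC. At least 5 CpG were found at 41 of 49 start window summits and at 9 of 39 gene body summits. Over all peaks of a list, wherever they lay, this share ran from 38.541% for Nur77 in LIF to 83.823% for FGFR1 in RA replicate 2. It was not computed by region over all genes. Peaks mostly within repeat sequence were 6 of 49 in start windows (12.24%) and 16 of 39 in gene bodies (41.03%), and outside the FGFR1 lists the share over whole lists ran from 27.88% to 45.34%.

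**Figure D5:**
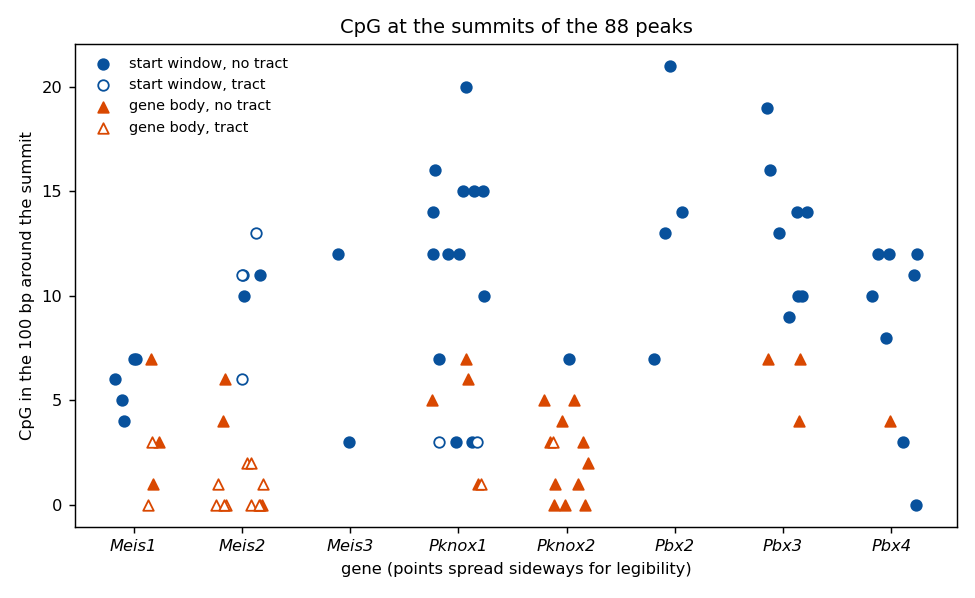
Number of CpG in the 100 bp around the summit (vertical axis) of each of the 88 peaks, by gene (horizontal axis). Blue circles are start window peaks, orange triangles gene body peaks, and open symbols lie over a purine-pyrimidine tract. Start window peaks with 12 CpG or more occur in 6 of the 8 genes, all but Meis1 and Pknox2, and no gene body peak exceeds 7.

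Words known for the factors were searched on both strands in 100 bp around each summit. The nuclear receptor core AGGTCA was in 1 of 88 peaks, of Nur77 in LIF in Pknox1 at chr17:31597588-31597771, and in 4.334% of all 176687 peaks. Its direct repeats with spacers of 1, 2 or 5 bases, the Nur77 word AAAGGTCA, which contains AGGTCA, and the CREB word TGACGTCA were in 0 of the 88 and in at most 0.617% of all peaks. The MEIS core TGACAG was in 6 of the 88, which is 6.818%, and in 5.259% of all peaks. Those 6 peaks covered 4 distinct word positions.

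The 6 peaks with the MEIS core lay in Pbx3 and Pknox1. In Pbx3 they were RXR in LIF at the coding site, FGFR1 in RA replicate 2 and RXR in RA at the intron site, and FGFR1 in RA replicate 2 and Nur77 in RA at the start site. In Pknox1 it was FGFR1 in RA replicate 2 at the start. The PBX-HOX word TGATNNAT was in 1 peak, of Nur77 in RA at the Pknox1 start, and in 0.989% of all peaks. The word TGATTGACAG, which joins a PBX site to the MEIS core and so contains it, was in 0 of the 88 and 0.023% of all.

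The other TALE genes, of the Iroquois and TGIF families (Irx1 to Irx6, Tgif1 and Tgif2), and 12 anterior Hox genes were counted in the same way. FGFR1 in RA had a start window peak at 5 of the 8 other TALE genes and 9 of the 12 Hox genes in replicate 1, at 3 and 5 in replicate 2, and at 0 and 1 in LIF. RXR in LIF had one at 4 and 6, and in RA at 1 and 2. In both RA libraries FGFR1 had a peak at 2 of the other TALE genes and 4 of the Hox genes, against 5 of the 8 cofactor genes. Among all protein-coding genes this share was 42.59%. Hoxd1 had a peak in all 8 libraries, and no gene of either list was without one. These lists are small and were not matched for window width, and the difference between them was not tested.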

How the data were processed

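ChIP-seq was deposited for 8 libraries as 1 peak list each. The authors aligned reads to mm10 with Bowtie 1.0, keeping uniquely placed reads, and called peaks per library with MACS2 at a p limit of 1e-05, without pooling; their command names no control. The deposited columns used were the fold (a ratio of pileup to local background), the −log10 p and −log10 q of each summit, and the score (the −log10 p multiplied by 10 and truncated). The sources used here state no fragment number. Fold and −log10 p were therefore solved for whole fragments and background (tolerance 0.002), which gave the background density, and precision covers counting error only.

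Groups came from the sample titles. Peaks were assigned to genes with GENCODE M21 on GRCm38, the same assembly as mm10, where they shared at least 1 bp with a window or gene body. Overlapping peaks were merged into sites. A tract was an alternating purine-pyrimidine run of at least 20 bp within a peak. Thinning to equal depth, which matched the background density alone, kept a peak whose chance of passing the p limit was at least 0.5 in the shallowest library of its factor. Repeat shares were read from the lower case letters of the reference. Scripts were run in Python 3.11.15 with pandas 2.3.3, scipy 1.17.1 and pysam 0.24.0 and were tested on simulated data.

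The genes and lists were chosen with earlier results of these data known. Named were all 8 genes, genes of the other lists with a peak in at least 6 libraries or in none, neighbours with a start within 1 kb of a peak, and the 3 genes most like the member with peaks in most libraries. Alternatives were limits on −log10 p, −log10 q and fold, equal numbers of peaks, equal depth, other windows, transcripts and overlaps, no tract peaks, whole-peak words and leaving out each FGFR1 replicate from RA.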

Additional observations from a re-analysis of the deposited data

How the results depend on the processing

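Of 241 values recomputed under an alternative, 201 moved by less than the replicate spread or within 1.5 times, 37 moved further and 3 turned direction. RXR turned from 2 fewer genes in RA (−2) to 2 more when every list held the same number of peaks. It turned to 3 more at equal background density (equal depth), where only the LIF list was thinned and the 0.5 limit removed all its genes. It was −1 at a fold of at least 5 and in windows of 1 kb or 500 bp on either side, and 0 at a −log10 p of at least 10. Nur77, at −1, turned to 1 in the 500 bp window, and was 0 in the 1 kb window and −3 at a −log10 p of at least 10 or with lists of the same length. FGFR1 kept its direction, with an excess in RA of 2 to 5 genes when either RA replicate was left out. Leaving out FGFR1 in RA replicate 1, added after seeing the data, raised the number of genes with no start window peak from 0 to 2. In both leave-one-out settings H3.3 overlapped 2 FGFR1 peaks. With lists of the same length the FGFR1 excess was 0.5.

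The number of genes bound became, at a −log10 p of at least 10, 1 for FGFR1 in LIF, 3 for RXR in LIF and 0 for Nur77 in RA. With lists of the same length it became 1 for RXR in LIF, 3 for FGFR1 in RA replicate 1 and 0 for Nur77 in RA, and 2 genes carried FGFR1 in both RA replicates. That number was 3 where summits had to lie within 100 bp. RXR in LIF had 3 genes in either narrow window and 0 at equal depth, and Nur77 in LIF had 1 in the 500 bp window.

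Peaks in the 8 loci became 2 for FGFR1 in LIF, 13 for FGFR1 in RA replicate 1 and 6 for Nur77 in RA at a −log10 p of at least 10. With lists of the same length they became 6 for RXR in LIF, 3 and 7 for FGFR1 in RA replicates 1 and 2 and 2 for Nur77 in RA, and 7 sites were shared. Without tract peaks they were 3 for FGFR1 in LIF, 9 for Nur77 in LIF and 4 for RXR in RA, and at equal depth 3 for RXR in LIF. Over whole peaks AGGTCA was in 2, the MEIS core in 14 and TGATNNAT in 4, the last being in 0 at a −log10 p of at least 10. The cause of these shifts was not tested beyond the fewer peaks, narrower windows or longer searched sequence that each setting brings. No paired analysis was possible because no result came from a test and 6 of 7 groups had 1 library.

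With 1 library in most groups, a missing peak says only that none passed the p limit at that depth.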
